A study of Mus musculus with 8 samples.

Results

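The LPS response of wild-type dendritic cells is the difference between 2 arrays of cells stimulated with bacterial lipopolysaccharide (LPS) and 2 arrays of unstimulated cells, 4 of the 8 arrays of the series. All 4 hold RNA of male C57BL/6Jax mice with an intact miR-155 gene (wild type, WT). Bone marrow was grown for 7 days in 40 ng/mL of GM-CSF, a growth factor that drives myeloid precursors towards dendritic cells, and part of the floating cells then received 100 ng/mL LPS for 16 h. Cells were sorted by flow cytometry on dendritic cell markers and on CD86, a surface protein of activated cells: the CD86- cells were taken from unstimulated cultures, and the CD86+ cells, which the study describes as adherent, from LPS cultures. The 2 states therefore also differ in sort gate and attachment, and LPS, gate and attachment cannot be told apart. The other 4 arrays hold the same 2 states of cells from miR-155 knockout (KO) mice, and enter here for the estimate of spread and for 1 comparison of the responses. No label ties the replicates to different animals or cultures, so p-values measure only the spread between these samples, which may be technical.

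LPS is sensed by CD14, MD-2 (gene Ly96) and the receptor Tlr4. The adaptor Myd88 leads from there to the transcription factor NF-kB and to early inflammatory cytokines, and the adaptor Ticam1 leads to interferon beta, which acts back on the cells through its receptor and switches on antiviral genes. Activated dendritic cells are known to stop taking up antigen, to display it with co-stimulatory molecules, to leave the cell cycle and to migrate to lymph nodes through the receptor Ccr7.

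Of 27398 gene names on the array, 14472 were tested, namely those with a probe that the scanner software marked as well above background on both arrays of either WT state. Values are given as scaled log2 signal, the log2 of the processed spot intensity minus the 75th percentile of that array, so that 0 is the level of that percentile; levels of different genes cannot be compared on this scale. Differences are LPS minus unstimulated on the log2 scale, with the standard error (SE) of the limma fit (n = 2 arrays per state), and a gene was called at a Benjamini-Hochberg adjusted p under 0.05. At that rule 3150 genes were called, 21.8% of those tested: 1483 were higher after LPS (10.2%) and 1667 lower (11.5%). Counts of calls in the gene lists below are to be read beside these shares. The median difference over all tested genes was 0. Among the calls, 497 rises and 435 falls reached 8-fold, and 95 rises and 20 falls reached 64-fold. A total of 440 rises concerned genes not well above background on either unstimulated array. Likewise 256 falls concerned genes not well above background on either LPS array. For both sets the fold change can at most be bounded from below (at least N-fold). That bound sets the bright state against the lowest detectable signal of the dim one, or the gene's own signal where that is higher. Where the bright state did not exceed that level, as for Apcs, no change was bounded.

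With 2 arrays per state the calls depended on each array. Leaving out one of the 4 arrays in turn left 1480 to 2170 calls, and 1123 of the 3150 genes, 572 higher and 551 lower, stayed called in all 4 of these fits. That is 3.95% and 3.81% of the genes tested. Of the 235 called genes that the rule in the methods names, 159 stayed called in all 4 fits. Directions of these named genes below rest on the 159 unless a lost call is stated. Genes of chromosomal runs and of the mitosis promoters are given in addition and are not all among them.

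**Figure D1:**
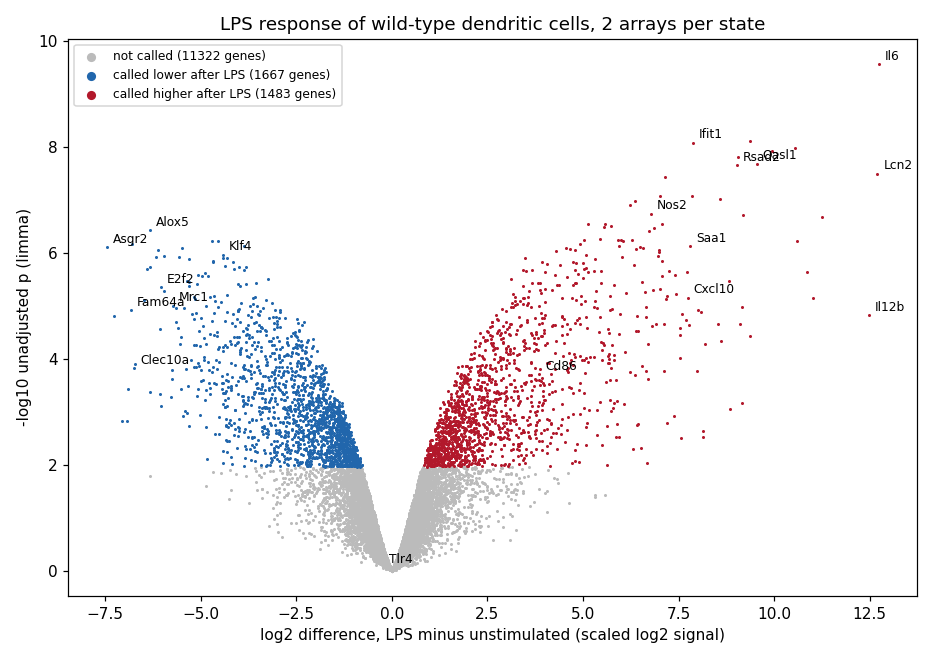
Log2 difference between LPS and unstimulated arrays (x axis) against the -log10 of the unadjusted limma p (y axis) for each of the 14472 tested genes, n = 2 arrays per state. The 1483 genes called higher lie on the right and reach 12.73 for Il6, the 1667 called lower lie on the left and reach -7.45 for Asgr2; Tlr4 lies near 0 on both axes.

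Cd14, the co-receptor that hands LPS to Tlr4, stood at 4.81 and 6.39 on the unstimulated arrays (replicates 1 and 2, the order used in every such pair) and at 8.12 and 8.37 on the LPS arrays. Ly96 stood at 1.19 and 1.59 and then at 2.88 and 3.26. For each gene both LPS arrays lay above both unstimulated ones, with differences of 2.65 ± 0.58 (adjusted p = 0.0191) and 1.68 ± 0.31 (adjusted p = 0.0103). Such separation of the 2 states, in either direction, was found for 62.8% of all tested genes. The Cd14 call was lost without unstimulated replicate 1 (1.86), LPS replicate 1 (2.77) or LPS replicate 2 (2.53), and the Ly96 call without unstimulated replicate 1 (1.48) or LPS replicate 2 (1.49). Tlr4 stood at 1.24 and 0.54 without LPS and at 2.66 and -1.33 with it. The 2 LPS arrays thus lay on opposite sides of the unstimulated pair, and the difference of -0.22 ± 1.52 was not called (adjusted p = 0.934); it was 1.77 without LPS replicate 2 and -2.22 without LPS replicate 1. The adaptors Myd88 (0.73 ± 0.33, adjusted p = 0.165) and Ticam1 (0.19 ± 0.36, adjusted p = 0.745) were not called either.

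Of 26 listed genes of LPS sensing and its adaptors 25 were tested, 7 were called higher and 0 lower, with a list median of 0.19 that ranged from 0.17 to 0.58 over the other settings tried. The smallest p in this list belonged to Irak3, a kinase-like protein that damps Toll-like receptor signals: it stood at 1.74 and 1.91 before LPS and at 4.02 and 4.42 after it, a rise of 2.39 ± 0.30 (adjusted p = 0.00253). Of 28 listed receptors for other microbial products, 22 were tested, 12 were called higher and 1 lower, with a median of 1.73. Zbp1, a sensor of Z-form nucleic acids, went from 1.59 and 1.39 to 5.89 and 6.74 (4.82 ± 0.32, adjusted p = 0.000314). Clec4e, the receptor Mincle, rose by 3.92 ± 0.26 and Ifih1, the double-stranded RNA sensor MDA5, by 3.83 ± 0.29. The groups did not overlap for any of these 3, nor for 62.8% of all tested genes.

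Among subunits and inhibitors of NF-kB, 20 of 21 listed genes were tested, 9 were called higher and 0 lower (median 1.62). Those with the smallest p included a brake and an alternative subunit. Tnfaip3 encodes A20, an enzyme that edits ubiquitin chains and shuts off the pathway, and went from 2.14 and 2.48 to 5.61 and 6.11 (3.55 ± 0.35, adjusted p = 0.00111). Traf1, an adaptor of TNF receptors, went from 3.28 and 3.40 to 6.66 and 7.57 (3.77 ± 0.40, adjusted p = 0.00141). Nfkb2, the p100 precursor of the non-canonical subunit, went from 2.62 and 2.78 to 5.66 and 5.13 (2.69 ± 0.33, adjusted p = 0.00232). Of 10 tested MAP kinase phosphatases 3 were called higher (30%) and 1 lower (10%), beside 10.2% and 11.5% of all tested genes. Dusp14 went from -6.80 and -6.46 to -0.10 and 1.93, at least 43.3-fold, a bound that was 87.8 without LPS replicate 1 and 21.4 without LPS replicate 2. Dusp4 was at least 19.4-fold and Dusp16 12.8-fold higher. The RNases Zc3h12a (Regnase-1) and Zc3h12c, which degrade cytokine messages, rose by 2.48 ± 0.26 and 2.80 ± 0.45. In the list of AP-1 and other immediate early factors, 3 of 24 genes were called higher and 3 lower. That is 12.5% each way, near the 10.2% higher and 11.5% lower of all tested genes. Batf2 rose from 0.94 and 1.06 to 3.97 and 4.57 (3.27 ± 0.29). Fos (-2.74 ± 0.69) and Jun (-1.53 ± 0.41) were called lower, but both calls were lost without unstimulated replicate 2 (-1.74 and -1.12), LPS replicate 1 (-2.37 and -1.33) or LPS replicate 2 (-3.11 and -1.73).

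Cytokine genes held the largest rises of the data. Il6, which encodes a B cell and acute phase cytokine (probe at chromosome 5, 30346362 to 30346421, mm9), stood at -4.36 and -4.34 on the unstimulated arrays, 1 of which was well above background, and at 8.54 and 8.22 on the LPS arrays. Its difference was 12.73 ± 0.24 (adjusted p = 3.92e-06). Both subunits of interleukin 12, the cytokine that directs T cells to make interferon gamma, came from below background. Il12b went from -6.83 and -4.60 to 5.68 and 7.82, at least 2480-fold (adjusted p = 0.000954; 5200 without LPS replicate 1 and 1180 without LPS replicate 2), and Il12a from -6.64 and -6.38 to 4.04 and 4.05, at least 379-fold (adjusted p = 3.49e-05). The LPS arrays lay next to each other for Il12a and further apart for Il12b, and for both genes the states were well separated. Il1a rose from -1.49 and -3.50 to 6.25 and 5.12 (8.18 ± 0.93) and Tnf from 2.39 and 2.69 to 6.60 and 6.16 (3.84 ± 0.38, adjusted p = 0.00114). Il10, which restrains this response, was not well above background before LPS and stood at -4.60 and -0.63 after it. The LPS arrays were far apart, and the difference of 3.86 ± 1.41 was not called by limma (adjusted p = 0.0983). It was called with the replicate number as a block (3.86), and where LPS replicate 1 was left out or slide 1 was taken alone (5.85).

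Of 31 listed interleukins and growth factors 30 were tested, 19 were called higher and 1 lower, and 13 of the 19 rises stayed called in every leave-one-out fit; the median was 3.46, or 2.29 with the 11 dim genes at their bound. In the TNF superfamily 10 of 16 listed genes were tested, and 6 were called higher and 1 lower. Tnfsf15 was at least 69.6-fold and Tnfsf10, the death ligand TRAIL, at least 17.5-fold higher. Among 25 tested chemokines of 29 listed, 14 were called higher and 0 lower (median 3.76), and 8 of the rises stayed called throughout. The neutrophil attractant Cxcl5 went from -6.97 and -6.62 to 3.54 and 2.76, at least 204-fold. Cxcl10, an interferon-induced attractant of T cells, went from -0.26 and -0.42 to 7.62 and 7.18 (7.74 ± 0.65, adjusted p = 0.000655), and Ccl22, made by mature dendritic cells, from -3.37 and -3.55 to 3.49 and 3.64 (7.02 ± 0.31, adjusted p = 0.000102). Cxcl11 was at least 43.5-fold higher. Cxcl3 rose by 8.84 ± 1.6, but its unstimulated arrays lay 3.74 apart, and its call was lost without LPS replicate 1 (8.16).

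Of 18 tested chemoattractant receptors 6 were called higher (33.3%) and 2 lower (11.1%, beside 11.5% of all tested genes); 4 of the rises and 1 of the falls stayed called in all 4 leave-one-out fits. Ccr7 went from -1.21 and 0.93 to 5.75 and 7.28 (6.65 ± 0.91, adjusted p = 0.00356), while Ccr2, which calls monocytes out of the marrow, went from 4.19 and 5.59 to -0.97 and -1.16 (-5.96 ± 0.48, adjusted p = 0.000561). The formyl peptide receptors Fpr1 (2.85 ± 0.39) and Fpr2 (2.28 ± 0.26) rose, and Cxcr5 was at least 6.84-fold higher (10.3 without LPS replicate 1, 4.55 without LPS replicate 2); with normexp background correction the calls of Fpr2 and Cxcr5 were lost.

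**Figure D2:**
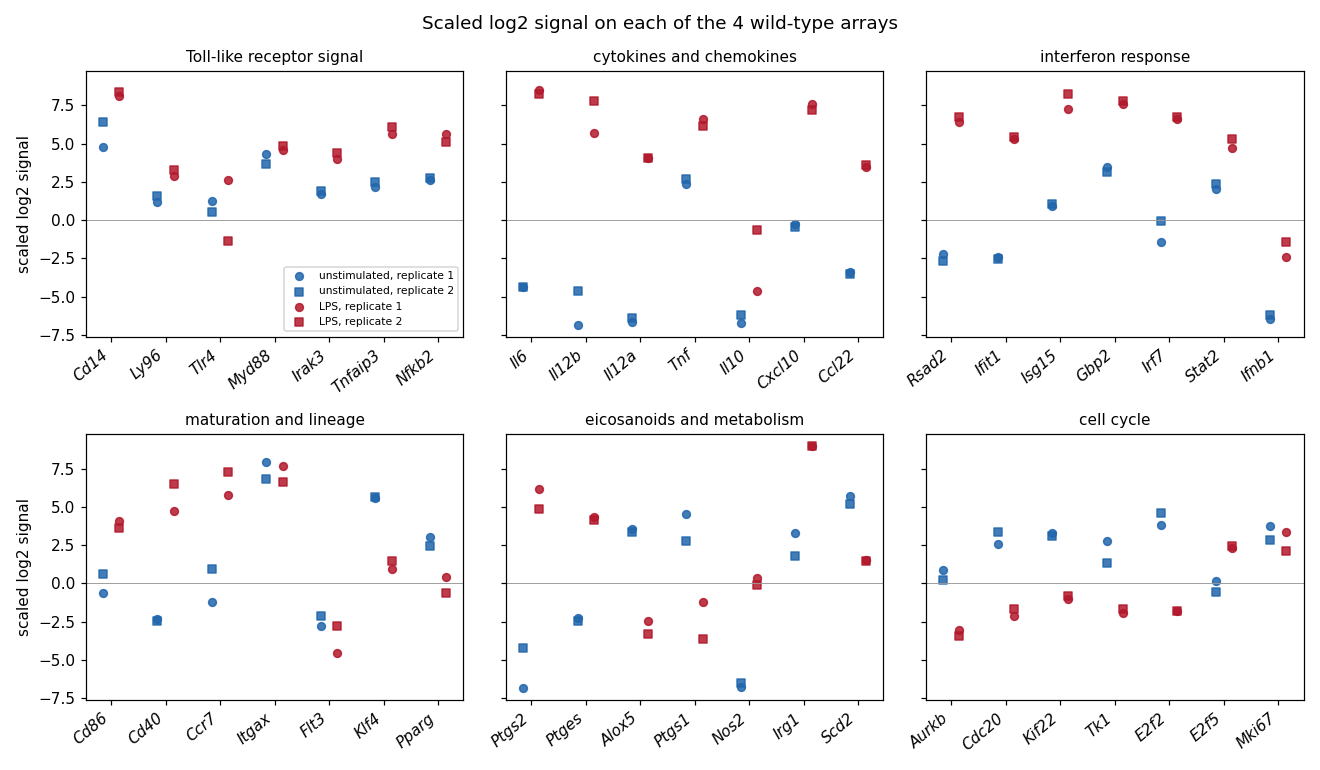
Scaled log2 signal (y axis) of 42 genes on each of the 4 WT arrays, in blue for unstimulated and red for LPS, with circles for replicate 1 and squares for replicate 2. The arrays of the 2 states are well apart for Il6, Rsad2, Ifit1 and Cd40, lie together for Itgax and Myd88, and the 2 LPS arrays fall on either side of the unstimulated ones for Tlr4.

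Of 35 listed antiviral genes 34 were tested, and 30 were called higher and 0 lower, with a median of 3.96; 26 of the 30 stayed called in every leave-one-out fit. All 16 tested interferon-induced GTPases were called higher (18 were listed, median 3.84, 13 stayed called throughout), as were 18 of 22 genes of the PARP, Schlafen and TRIM families (median 2.90) and 11 of 13 genes of ubiquitin-like modification (median 2.87). Rsad2 encodes viperin, an enzyme that makes a chain-terminating nucleotide (probe at chromosome 12, 27127859 to 27127918, mm9). It stood at -2.21 and -2.66 before LPS and at 6.39 and 6.78 after it, a difference of 9.02 ± 0.33 (adjusted p = 3.97e-05). Oasl1, which binds viral RNA and the Irf7 message, went from -2.14 and -2.75 to 6.81 and 7.36 (9.54 ± 0.34, adjusted p = 3.97e-05). Ifit1, which binds RNA with a foreign cap (probe at chromosome 19, 34723796 to 34723855, mm9), went from -2.42 and -2.55 to 5.32 and 5.47 (7.88 ± 0.25, adjusted p = 3.49e-05). Within each state the 2 arrays of these genes lay within 0.61 of each other, and the states were far apart.

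Guanylate-binding and immunity-related GTPases, which attack the vacuoles of microbes, were called as well. Gbp5 rose from 0.15 and -0.10 to 6.24 and 6.54 (6.36 ± 0.29), Tgtp1 from -2.48 and -2.25 to 4.36 and 5.40 (7.25 ± 0.51) and Gbp2 from 3.46 and 3.14 to 7.62 and 7.77 (4.40 ± 0.30). Isg15, a ubiquitin-like protein, rose by 6.72 ± 0.37, its ligase Herc6 by 5.12 ± 0.27 and Usp18, the protease that removes it, by 5.02 ± 0.35. Slfn4 was at least 355-fold and Ifi44 at least 407-fold higher. Trim30a, a negative regulator, and its relative Trim30d rose by 3.17 ± 0.26 and 3.12 ± 0.23. Of the genes upstream, Irf7 was the only one of 10 tested interferon regulatory factors called, from -1.45 and -0.04 to 6.63 and 6.75 (7.44 ± 0.61, adjusted p = 0.00061). Stat2 rose by 2.82 ± 0.30 and Stat4 by 7.78 ± 0.78, the latter with 1 of the 2 unstimulated arrays well above background (7.40 with the other set to its lowest detectable level). Ifnb1 itself, the first interferon of the cascade, was not well above background before LPS and stood at -2.38 and -1.42 after it, at least 6.16-fold higher (adjusted p = 0.0193). That call was lost whichever array was left out, with fitted differences, taken from signal under background and so no bounds, of 4.30 without unstimulated replicate 1, 4.53 without unstimulated replicate 2, 4.89 without LPS replicate 1 and 3.94 without LPS replicate 2.

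Promoters of several of these lists often held a short sequence named after the interferon response. The lists were themselves chosen as genes of that response, so a high share in them is a description and no independent result. RefSeq promoter windows (GRCm38.p6, 250 bases before to 50 after a start) were matched to 9790 of the 14472 tested genes. The interferon-stimulated response element was searched on both strands as GAAA, any 2 bases, GAAA. It was found for 380 of 9789 tested symbols (3.88%), 89 of 938 called higher (9.49%) and 39 of 1233 called lower (3.16%); over all genes with a window the share was 3.99%. In the gene lists it was found for 13 of 28 antiviral genes (46.4%), 9 of 10 interferon-induced GTPases (90%) and 11 of 18 genes of the PARP, Schlafen and TRIM families (61.1%), but for 2 of 11 genes of ubiquitin-like modification (18.2%) and 1 of 9 interferon regulatory factors (11.1%). A match is a description of letters and no proof of a working site. The 150 bases before the start are shown for 4 of these genes, in gene orientation, with the matches in capitals. They lie at chr12:26456453-26456602, minus strand (Rsad2), chr19:34640739-34640888, plus strand (Ifit1), chr4:156200819-156200968, minus strand (Isg15) and chr3:142620513-142620662, plus strand (Gbp2).
Rsad2: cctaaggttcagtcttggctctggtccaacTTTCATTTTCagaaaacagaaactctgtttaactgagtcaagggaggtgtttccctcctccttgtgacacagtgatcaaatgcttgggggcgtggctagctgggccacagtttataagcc
Ifit1: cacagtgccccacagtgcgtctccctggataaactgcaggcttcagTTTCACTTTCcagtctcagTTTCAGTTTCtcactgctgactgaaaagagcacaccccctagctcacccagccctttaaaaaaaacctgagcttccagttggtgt
Isg15: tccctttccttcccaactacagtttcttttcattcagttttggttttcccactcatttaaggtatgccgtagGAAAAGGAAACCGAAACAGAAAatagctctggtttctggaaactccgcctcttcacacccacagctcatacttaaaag
Gbp2: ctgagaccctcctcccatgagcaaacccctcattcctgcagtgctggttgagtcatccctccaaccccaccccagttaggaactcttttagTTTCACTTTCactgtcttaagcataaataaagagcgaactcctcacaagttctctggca
Ifit1 carried 2 matches, starting at -104 and -85 from the gene's start. Isg15 carried 3 that overlap, at -78, -72 and -66. Rsad2 had its match at -120 and Gbp2 at -59.

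The same search for an NF-kB site (GGGA, any base, TTTCC) found 53 of 9789 tested symbols (0.541%), 11 of 938 called higher (1.17%) and 6 of 1233 called lower (0.487%). In the gene lists it was found for 3 of 17 chemokines (17.6%), 3 of 16 NF-kB subunits and inhibitors (18.8%) and 3 of 20 interleukins and growth factors (15%). Every other list held 0 or 1 match, and these counts are small. Il6, the gene with the largest rise, held 1 match at -44, shown in capitals in the 150 bases before its start (chr5:30012964-30013113, plus strand, GRCm38.p6).
Il6: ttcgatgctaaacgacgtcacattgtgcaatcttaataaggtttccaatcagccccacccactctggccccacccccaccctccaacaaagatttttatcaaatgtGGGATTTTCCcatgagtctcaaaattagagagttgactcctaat

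**Figure D3:**
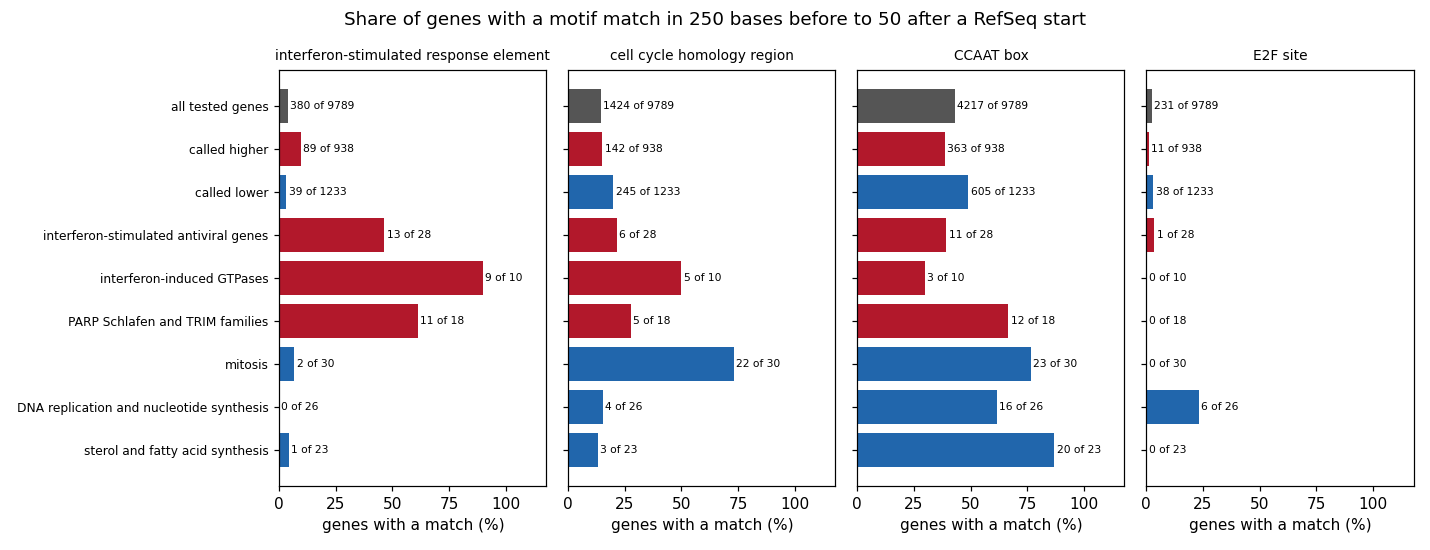
Percentage of genes with a motif match in the RefSeq window (x axes, 0 to 100%) for all tested genes, called genes and 6 gene lists (y axis); red marks genes called higher and the interferon lists, blue genes called lower and the lists of mitosis, replication and lipid synthesis, and numbers beside the bars give genes with a match of genes with a window. The interferon-stimulated response element reaches 90% in interferon-induced GTPases against 3.88% of all tested genes, and the cell cycle homology region 73.3% in mitosis genes against 14.5%.

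Called genes also lay side by side on the chromosomes. Of the tested genes 14170 had an mm9 position. Ordered along the chromosomes, 159 higher genes lay in 31 runs of at least 4 neighbours all called higher, and 62 lower genes in 14 runs called lower. The runs were read from the calls, so they are a description. Members of a run are often close relatives, whose probes may also pick up each other's RNA, so values of single relatives are uncertain. The longest run held 12 genes on chromosome 1 from 174824959 to 175956806. This region of the interferon-inducible p200 family of DNA-binding proteins also holds Apcs and transcripts without a gene name. Among the family were Ifi204 (3.63 ± 0.38), Mnda (4.50 ± 0.44) and Pyhin1 (5.31 ± 0.46). Fitted differences ran from 2.04 to 8.08, and 8 of the 12 stayed called throughout. For Apcs, the lowest, signal without LPS was under background and no rise could be bounded. From below background, ENSMUST00000169797 was at least 170-fold and Pydc4 at least 17.5-fold higher. Next came 8 Schlafen genes on chromosome 11 from 82778192 to 83028490, with a median of 3.81. A run of 6 genes held the Ifit region on chromosome 19 from 34650244 to 34723855 (fitted differences of 6.85 to 8.53, all 6 stayed called). Of these, I830012O16Rik came from below background and was at least 62.8-fold higher. Another run of 6 held the membrane-spanning Ms4a family on chromosome 19 from 11500754 to 11661485. In the latter run Ms4a4c went from -4.17 and -1.46 to 6.36 and 6.21 (9.11 ± 0.91) and Ms4a4b from -3.89 and -2.01 to 4.73 and 4.77 (7.70 ± 0.75), while Ms4a6b (4.71 ± 1.32) had unstimulated arrays 4.14 apart and kept its call in 1 of the 4 leave-one-out fits. The immunoproteasome and peptide transporter genes Psmb9, Tap1, Psmb8 and Tap2 formed a run of 4 within 33.1 kb of chromosome 17; Psmb9 kept its call in 1 of the 4 leave-one-out fits and the other 3 in all.

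Falling runs were fewer. Histone genes on chromosome 13 from 21845637 to 22094428 formed a run of 6 that also held Prss16, with all 6 calls kept in every leave-one-out fit; the replication-dependent histone Hist1h1b went from 3.25 and 2.88 to -1.39 and -2.83 (-5.18 ± 0.69). Fads1 (-2.44 ± 0.30) and Fads2 (-3.79 ± 0.39), desaturases of polyunsaturated fatty acids, lay in a run of 4 on chromosome 19. A run on chromosome 11 held the inhibitory receptor Cd300a (-4.43 ± 0.63) and its relatives Cd300lb and Cd300ld; 3 of its 6 calls stayed in all 4 leave-one-out fits, and that of Cd300ld in 2. A run on chromosome 6 held 4 Ly49 receptors, of which Klra3 was at least 6.52-fold lower.

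Many genes of T cell stimulation rose and many of antigen uptake fell. Cd86, whose protein was the sort marker and which is therefore no finding, stood at -0.65 and 0.59 in the CD86- cells and at 4.05 and 3.59 in the CD86+ cells (3.85 ± 0.54, adjusted p = 0.00399). Of 22 tested genes of co-stimulation and checkpoint ligands, 15 were called higher and 0 lower (median 1.93), and 10 stayed called throughout. Cd40, through which T cells license dendritic cells, went from -2.32 and -2.49 to 4.73 and 6.49 (8.02 ± 0.73, adjusted p = 0.00086). Cd200, an inhibitory ligand, went from -1.02 and -2.02 to 4.53 and 5.10 (6.34 ± 0.43), and Tnfrsf9 (4-1BB) rose by 5.46 ± 0.39.

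Of 21 tested genes of the MHC class I pathway 15 were called higher and 0 lower (median 1.53), among them the non-classical H2-T24 (4.44 ± 0.37), the class I transactivator Nlrc5 (2.92 ± 0.33) and the transporter Tap1 (2.81 ± 0.29). Of 18 tested genes of the MHC class II pathway 1 was called higher and 4 lower (median -0.39, from -0.79 to -0.10 over the other settings). H2-DMa, which loads peptides onto class II, stood at 6.17 and 6.19 before LPS and at 3.71 and 3.95 after it (-2.35 ± 0.24, adjusted p = 0.00116).

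Lectins and scavenger receptors, the uptake machinery, held 12 called lower and 2 called higher of 25 tested, with 9 of the falls kept throughout (median -1.05, from -1.78 to -0.38 over the other settings). Asgr2, a galactose-binding lectin, showed the largest fall among genes measured on all 4 arrays (probe at chromosome 11, 69919568 to 69919627, mm9), from 6.59 and 5.31 to -1.43 and -1.57 (-7.45 ± 0.45, adjusted p = 0.000257). Clec10a went from 4.59 and 4.41 to -1.15 and -3.33 (-6.74 ± 0.91) and the mannose receptor Mrc1 from 4.09 and 3.37 to -1.61 and -2.39 (-5.73 ± 0.51). Cd207 (langerin) was at least 47.4-fold lower, and Cd93, a receptor for dying cells, changed by -6.17 ± 0.40. Marco, a scavenger receptor for bacteria, went the other way, from 4.72 and 2.65 to 8.68 and 9.66 (5.49 ± 0.70, adjusted p = 0.00269). In the complement list the factors Cfb (3.91 ± 0.36) and C2 (3.72 ± 0.41) rose while C1qa (-3.80 ± 0.56) and the IgG salvage receptor Fcgrt (-3.34 ± 0.59) fell. Of 33 adhesion and migration genes 9 were called higher (27.3%) and 7 lower (21.2%), beside 10.2% and 11.5% of all tested genes. The actin bundler Fscn1 went from -3.24 and -2.15 to 4.04 and 5.67 (7.55 ± 0.78), and Itgb8 was at least 29.3-fold higher. E-cadherin (Cdh1) was at least 44.2-fold lower (24.6 without unstimulated replicate 1, 79.4 without unstimulated replicate 2). The protease inhibitor Timp2 changed by -5.63 ± 0.50.

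**Figure D4:**
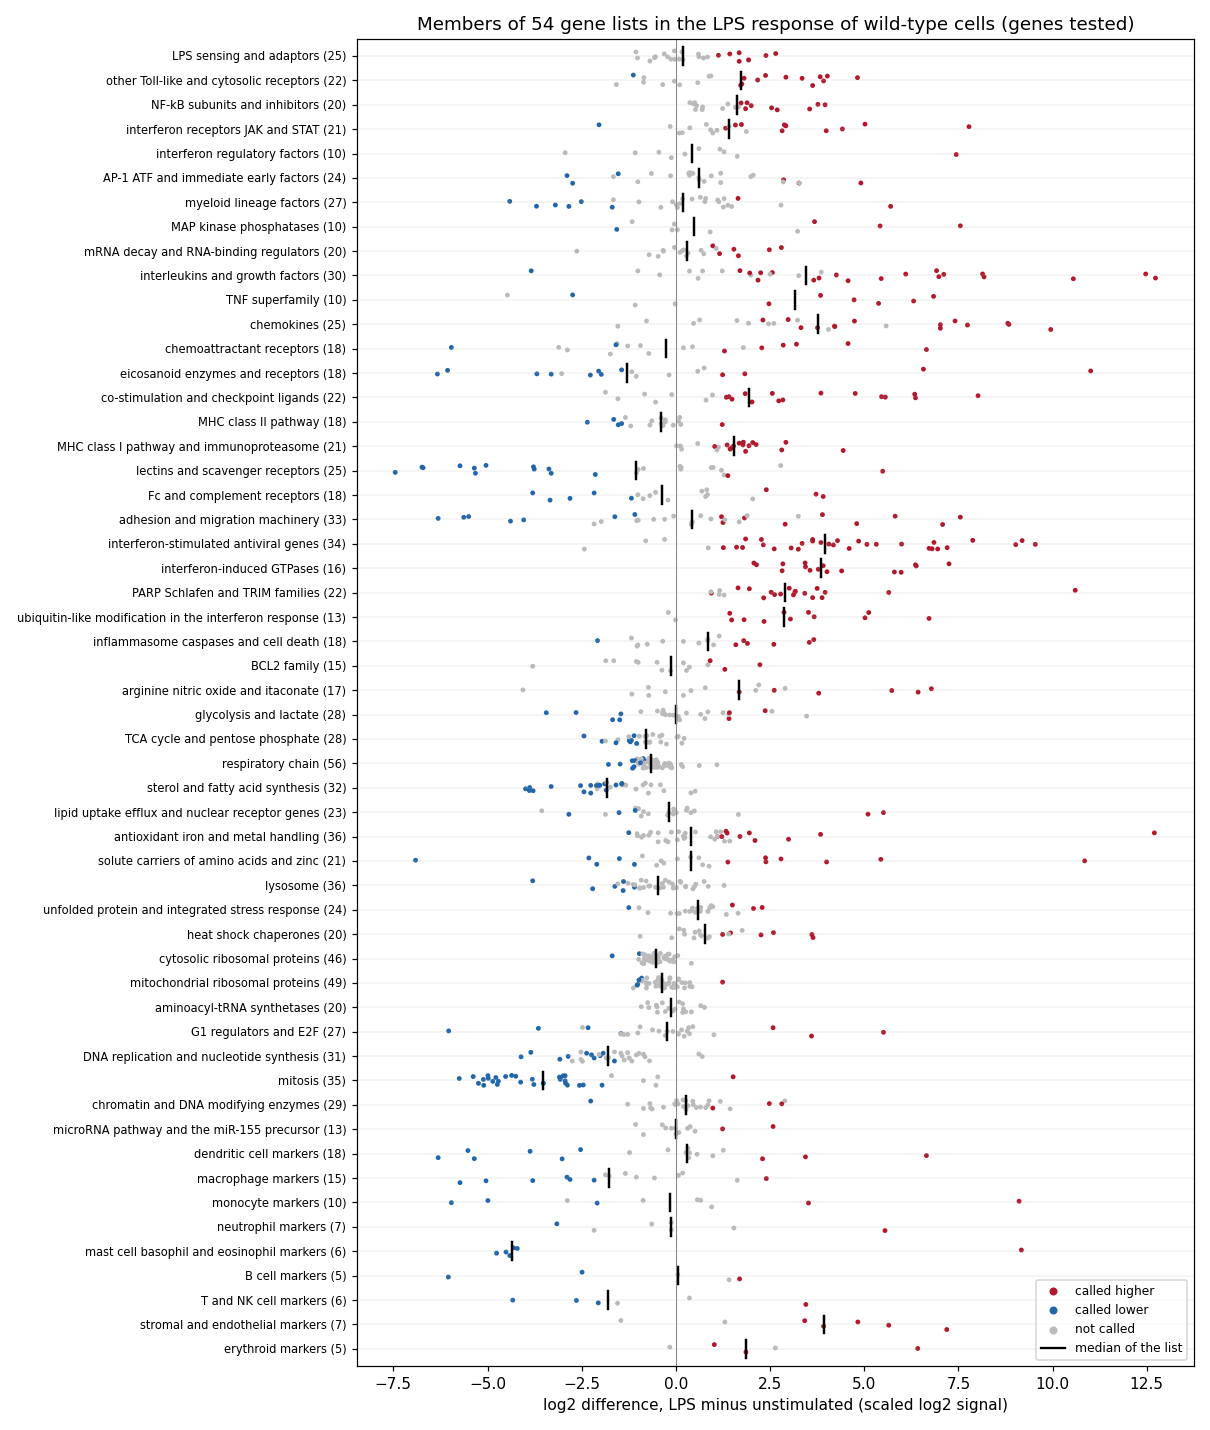
Log2 difference between LPS and unstimulated arrays (x axis) of the tested members of 54 gene lists (y axis, number tested in parentheses); each point is a gene, red where called higher, blue where called lower and grey where not called, and the black bar is the median. Interferon-induced GTPases are all red between 2.07 and 7.25, 30 of 35 mitosis genes are blue, and the 20 aminoacyl-tRNA synthetases are all grey.

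Enzymes that turn arachidonic acid into lipid mediators went both ways. Ptgs2, the inducible cyclooxygenase, went from -6.81 and -4.21 to 6.16 and 4.86 (11.01 ± 0.92, adjusted p = 0.000655, with 1 of the 2 unstimulated arrays well above background). The value of -6.81 lies under the lowest signal well above background on that array (-4.68); with the array set to that level the difference was 9.95. Ptges, the prostaglandin E synthase that works with it, went from -2.24 and -2.45 to 4.31 and 4.13 (6.57 ± 0.40, adjusted p = 0.000257). Ptgs1, the constitutive cyclooxygenase, went from 4.52 and 2.74 to -1.21 and -3.65 (-6.06 ± 0.98). In leukotriene synthesis the lipoxygenase Alox5 fell (probe at chromosome 6, 116360326 to 116360385, mm9), from 3.54 and 3.38 to -2.46 and -3.29 (-6.33 ± 0.34, adjusted p = 0.00021), as did its activating protein Alox5ap, from 7.14 and 7.95 to 4.46 and 4.0 (-3.31 ± 0.41, adjusted p = 0.00244). Of 18 tested eicosanoid genes 4 were called higher and 8 lower.

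Nitric oxide and itaconate, small molecules toxic to microbes, are made by Nos2 and Irg1. Nos2 was not well above background before LPS and stood at 0.37 and -0.11 after it, at least 25.1-fold higher (adjusted p = 0.000161). Irg1 went from 3.29 and 1.78 to 8.98 and 8.95 (6.43 ± 0.67, adjusted p = 0.00132), and Gch1, which supplies the cofactor of Nos2, from 1.97 and 1.68 to 4.34 and 4.52 (2.61 ± 0.26). The mitochondrial superoxide dismutase Sod2 rose by 2.99 ± 0.39. Lcn2, which captures bacterial iron carriers, went from -6.78 and -6.51 to 5.48 and 6.63, at least 1530-fold (adjusted p = 5.14e-05).

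Most calls among genes of energy metabolism were falls. Of 28 tested genes of the TCA cycle and pentose phosphate pathway 0 were called higher and 8 lower (28.6%, median -0.79), and of 56 respiratory chain genes 0 were called higher and 9 lower (16.1%, median -0.65), beside 11.5% lower over all tested genes, but 1 fall in each list stayed called in every leave-one-out fit, Idh2 (-2.44 ± 0.34) and Ndufb5 (-1.79 ± 0.25); the latter call was lost within slide 1 and with normexp. In glycolysis 3 of 28 were called higher (10.7%) and 5 lower (17.9%), beside 10.2% and 11.5% of all tested genes. The falls that held were the less common isozymes Aldoc, from 4.71 and 4.50 to 1.89 and 2.01 (-2.65 ± 0.34), and Ldhb, from 4.19 and 5.10 to 0.72 and 1.68 (-3.44 ± 0.48). Hif1a, the regulator of this pathway under low oxygen, was called higher (1.42 ± 0.34, adjusted p = 0.0265), a call lost whichever array was left out, with 1.37 and 1.48 without unstimulated replicates 1 and 2 and 1.16 and 1.69 without LPS replicates 1 and 2.

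Of 32 tested genes of sterol and fatty acid synthesis 17 were called lower and 0 higher (median -1.84), and 9 stayed called throughout. The desaturase Scd2 went from 5.74 and 5.18 to 1.51 and 1.44 (-3.99 ± 0.27, adjusted p = 0.000342), and the elongase Elovl6 from 0.26 and -0.35 to -3.96 and -3.91 (-3.89 ± 0.41), a call lost with normexp. By contrast Dgat2, which makes triglycerides, went from -0.87 and -0.09 to 3.97 and 6.08 (5.51 ± 0.65, adjusted p = 0.00202). In the promoter windows of this list the letters CCAAT, searched on both strands, were found for 20 of 23 symbols (87%) against 43.1% of all tested symbols, and the sterol regulatory element TCACNCCAC for 1 of 23 (4.35%) against 1.41%. Lysosomal genes held 6 falls (16.7%, beside 11.5% of all tested genes) and 0 rises among 36 tested. None of these falls stayed called in all 4 leave-one-out fits.

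The machinery of protein synthesis showed few calls. Among 46 cytosolic ribosomal protein genes 0 were called higher and 2 lower (4.35%, under the 11.5% of all genes). Among 49 mitochondrial ones 1 was called higher (2.04%) and 4 lower (8.16%), beside 10.2% and 11.5% of all tested genes. No call of either ribosomal list stayed in all 4 leave-one-out fits. Among 20 aminoacyl-tRNA synthetases 0 were called in either direction by limma, with differences of -0.92 to 0.76. Of these synthetases, 2 were higher and 2 lower at an unadjusted p under 0.05. Heat shock chaperones held 6 rises of 20 tested: Hspa1a, a stress-inducible Hsp70, went from -0.43 and 0.32 to 2.84 and 4.33 (3.64 ± 0.62, adjusted p = 0.00837). Transporters went both ways, with 7 of 21 higher and 5 lower. The glutamate carrier Slc1a2 went from -6.76 and -6.54 to 4.24 and 4.16, at least 422-fold, and the nucleoside carrier Slc28a2 from -3.29 and -3.36 to 2.33 and 1.90 (5.44 ± 0.52). Of 18 tested genes of inflammasomes, caspases and cell death 6 were called higher and 1 lower. Cflar, an inhibitor of caspase 8, rose from 1.80 and 2.06 to 5.57 and 5.61 (3.66 ± 0.28), Casp4, the sensor of LPS in the cytosol, from 2.24 and 3.03 to 6.08 and 6.27 (3.54 ± 0.31), and Pycard, the inflammasome adaptor ASC, went from 6.95 and 6.83 to 4.92 and 4.69 (-2.08 ± 0.28), a call lost with normexp.

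Genes of cell division fell together. Of 35 tested mitosis genes (36 listed) 30 were called lower and 1 higher, with a median of -3.52, or -3.12 with the 5 dim genes at their bound, and 26 of the falls stayed called in every leave-one-out fit. Aurkb, a kinase that checks chromosome attachment, went from 0.85 and 0.21 to -3.04 and -3.44 (-3.77 ± 0.35, adjusted p = 0.000954). Cdca3 went from 2.95 and 3.31 to -1.61 and -2.09 (-4.98 ± 0.48) and the kinetochore motor Cenpe from 2.20 and 2.08 to -0.75 and -0.95 (-2.99 ± 0.30). Fam64a, in no list, was at least 59-fold lower. Mki67, the common marker of cycling cells, stood at 3.72 and 2.84 without LPS and at 3.38 and 2.13 with it; the groups overlapped and the difference of -0.53 ± 0.47 was not called (adjusted p = 0.47). Pttg1 (securin) was the 1 rise, 1.52 ± 0.32, a call lost without unstimulated replicate 1 (1.16), LPS replicate 1 (1.61) or LPS replicate 2 (1.43).

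Genes of DNA replication and nucleotide synthesis held 10 falls and 0 rises of 31 tested (median -1.79, -0.82 without unstimulated replicate 1 and -2.49 without unstimulated replicate 2), but 2 falls stayed called throughout: thymidine kinase Tk1, from 2.76 and 1.34 to -1.92 and -1.68 (-3.85 ± 0.56), and Rfc5 (-2.01 ± 0.30), whose call was lost within slide 1 and with normexp. Among regulators of the G1 phase E2f2, an activator of S phase genes, went from 3.82 and 4.61 to -1.81 and -1.83 (-6.03 ± 0.47, adjusted p = 0.000497), and E2f5, a repressor, from 0.16 and -0.55 to 2.31 and 2.46 (2.58 ± 0.35, adjusted p = 0.00335). Ccnd2 was called higher (5.51 ± 1.32), but its unstimulated arrays were 3.46 and -0.46, and the call was lost without unstimulated replicate 2 (3.55), LPS replicate 1 (5.52) or LPS replicate 2 (5.51).

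Promoter windows of the mitosis genes often held a motif known from cell cycle genes. The cell cycle homology region, searched as TTTGAA on both strands, was found for 22 of 30 mitosis symbols (73.3%), against 14.5% of all tested symbols, 19.9% of those called lower, 15.1% of those called higher and 20.2% of all genes with a window. The CCAAT box was found for 23 of 30 (76.7%) against 43.1%. The E2F site TTTCCCGC was found for 0 of 30 mitosis symbols and for 6 of 26 symbols of DNA replication (23.1%), against 2.36% of all tested symbols. For 2 genes with a match just before the start, chosen after their values were seen, the text shows the 150 bases before it in gene orientation, with the match in capitals: Kif22, a chromosome-moving kinesin (chr7:127042421-127042570, minus strand, GRCm38.p6), and Cdc20, an activator of the enzyme that ends mitosis (chr4:118437344-118437493, minus strand).
Kif22: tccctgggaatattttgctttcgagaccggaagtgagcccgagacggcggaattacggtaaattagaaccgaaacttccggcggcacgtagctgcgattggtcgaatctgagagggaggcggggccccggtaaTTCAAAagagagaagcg
Cdc20: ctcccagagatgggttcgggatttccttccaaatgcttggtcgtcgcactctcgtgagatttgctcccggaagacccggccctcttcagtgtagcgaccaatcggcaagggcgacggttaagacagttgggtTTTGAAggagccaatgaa
Kif22, with its match at -17, went from 3.30 and 3.07 to -1.05 and -0.83 (-4.12 ± 0.45, adjusted p = 0.00151). Cdc20, with its match at -18, went from 2.56 and 3.38 to -2.12 and -1.67 (-4.86 ± 0.77, adjusted p = 0.00601).

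Itgax (CD11c), the marker by which dendritic cells are usually gated, stood at 7.91 and 6.83 without LPS and at 7.68 and 6.63 with it; the groups overlapped, and the difference of -0.21 ± 0.54 was not called (adjusted p = 0.816). Flt3, a receptor of conventional dendritic cells, stood at -2.77 and -2.11 and at -4.55 and -2.78 (not called, adjusted p = 0.431). Of 18 tested dendritic cell markers 3 were called higher and 6 lower, with a median of 0.30 that ranged from -0.11 to 0.34 over the other settings tried. Btla rose from -3.46 and -3.53 to 0.01 and -0.13 (3.44 ± 0.24), while Ffar2 fell from 1.61 and 1.05 to -4.49 and -3.88 (-5.52 ± 0.60) and Naaa from 7.64 and 7.08 to 4.67 and 4.02 (-3.02 ± 0.40). Clec9a, a marker of cross-presenting cells, was at least 4.02-fold lower (a call lost with normexp). Summed over the tested markers, in units of each array's 75th percentile, dendritic cell markers came to 956 and 667 on the unstimulated arrays and 867 and 780 on the LPS arrays. Such a sum is led by the brightest probes, whose levels cannot be compared between genes.

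Among lineage regulators, Klf4 went from 5.58 and 5.65 to 0.96 and 1.46 (-4.41 ± 0.28, adjusted p = 0.000291), Pparg, a lipid-sensing nuclear receptor, from 3.01 and 2.45 to 0.42 and -0.63 (-2.84 ± 0.39, adjusted p = 0.00381), and its partner Rxra fell by 1.69 on the log2 scale (a call lost within slide 1 and with normexp). Gfi1, a repressor, rose by 5.70 ± 0.96, with 1 of the 2 unstimulated arrays well above background (4.60 with the other set to its lowest detectable level). Of 27 tested myeloid regulators 2 were called higher (7.41%) and 6 lower (22.2%), beside 10.2% and 11.5% of all tested genes. Among chromatin enzymes the histone demethylase Kdm6b rose by 2.48 ± 0.37 and the deacetylase Hdac5 fell by 2.26 on the log2 scale, and in the microRNA pathway the Argonaute gene Eif2c3 rose by 2.58 ± 0.34 while Dicer1 and Drosha were not called. No probe carried the name Bic, the host transcript of miR-155, so it was not measured here.

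Cells of other types could be present in a bulk sample, where fewer cells of a type and less RNA per cell cannot be told apart. Of 15 tested macrophage markers 1 was called higher and 6 lower, with 4 of the falls and 0 of the rises kept in all 4 leave-one-out fits, and their summed level was 975 and 1420 without LPS and 1220 and 1200 with it. Such sums weigh the brightest probes most. Of 10 monocyte markers 2 were higher and 3 lower (sums of 68.2 and 127 against 261 and 239). Of 7 tested neutrophil markers of 14 listed 1 was higher, Camp at least 11-fold, and 1 lower (15.2 and 40.9 against 14.4 and 12.9). The 1 neutrophil marker called lower did not stay called in all 4 leave-one-out fits. Mast cell, basophil and eosinophil markers did not pass the background filter for 10 of 16 listed genes. Of the 6 tested, 5 were called lower and 1 higher, with 3 of the falls and 0 of the rises kept in all 4 leave-one-out fits. Siglec5 went from 1.67 and 0.62 to -2.77 and -3.76. Cd200r3 went from -1.07 and -0.24 to -3.97 and -5.76, with 1 LPS array well above background. Mcpt8 was at least 7.92-fold lower (18.3 without unstimulated replicate 1, 3.43 without unstimulated replicate 2). The calls of Cd200r3 and Mcpt8 were lost with normexp. The sums over the 6 markers were 4.07 and 5.13 against 115 and 14.9. The brightest of these probes on the LPS arrays was that of Hdc, the enzyme of histamine synthesis, which went from -4.94 and -2.68 to 6.85 and 3.88 (its call was lost without unstimulated replicate 1, 8.04). Of 10 listed B cell markers 5 were tested, 1 was called higher (Blnk, 1.69) and 2 lower, and none of these calls stayed in all 4 leave-one-out fits. Their sums of 50.3 and 58.8 against 131 and 210 were mostly the signal of the Blnk probe. T and NK cell markers, 6 of 14 tested, came to 0.583 and 0.929 against 0.402 and 0.454. Stromal and endothelial markers, 7 of 14 tested, held 5 rises, 2 of them kept in all 4 leave-one-out fits, and 0 falls, with sums of 0.702 and 0.508 against 9.43 and 7.65; Kdr was at least 45.1-fold (74.0 without LPS replicate 1, 27.5 without LPS replicate 2) and Lum at least 6.15-fold higher, the latter a call lost with normexp, while Col1a1, Col3a1, Pdgfra, Pecam1 and Cdh5 passed the background filter in neither state. Erythroid markers, 5 of 9 tested, held 3 rises, 1 of them kept in all 4 such fits, and 0 falls, with sums of 0.863 and 0.588 against 47.1 and 21.7, mostly the signal of the Car2 probe (6.42 ± 0.61); Klf1 and Alas2 did not pass the filter. The part of such cells in the results above was not tested.

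Outside the lists, the smallest adjusted p among rises belonged to transcripts with little annotation and to surface proteins. The probe named NP064182 was at least 149-fold higher (adjusted p = 3.49e-05), 9130014G24Rik at least 75.6-fold, Gp6, a collagen receptor of platelets, at least 210-fold and Susd2 at least 35.1-fold. Apol9b, of an interferon-inducible family, went from -4.33 and -4.32 to 4.57 and 4.90 (9.06 ± 0.31). U90926 was at least 510-fold higher (840 without LPS replicate 1, 309 without LPS replicate 2), and Saa1, an acute phase protein, went from -0.42 and 1.01 to 7.85 and 8.33 (7.80 ± 0.47, adjusted p = 0.000257). Among falls, Il1rl1, the receptor of interleukin 33, was at least 46.1-fold (25.4 without unstimulated replicate 1, 83.5 without unstimulated replicate 2), Cyp2s1 at least 30.3-fold and Rgs18 at least 21.1-fold lower, the last with a call lost with normexp. Chn2, a Rac-inhibiting chimaerin, went from 2.26 and 1.94 to -3.39 and -4.34 (-5.96 ± 0.38).

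The 2 arrays of a state differed most in a small set of genes. Over the 12454 genes well above background on all 4 arrays the median difference between replicates was 0.39 without LPS and 0.33 with it, and 1669 and 1265 genes differed by over 2-fold. The haemoglobin gene Hbb-b1 stood at -2.92 and -3.02 without LPS and at 2.90 and -3.57 with it, and 3 further probes of the gene were likewise higher on LPS replicate 1. Dab2, an endocytic adaptor, stood at 4.79 and -0.04 on the LPS arrays and Aldh1a2, a retinoic acid enzyme of some dendritic cells, at 6.01 and 1.48, while Kcne3 stood at -4.58 and 0.58. Car4 differed in both states (2.88 and -3.21 without LPS, 5.32 and 0.54 with it), as did Inhba (1.02 and -3.47, then 7.96 and 5.88). Wdr75 stood at 1.99 and -2.90 and Cmtm6 at -0.84 and 3.66 without LPS, with LPS arrays of 1.30 and 1.28 and of 4.15 and 3.25. The first principal component of the 4 arrays held 80.5% of the variance and separated the states, and the second, with 11.4%, separated replicate 1 from replicate 2 in both. LPS replicate 1 was the only one of the 4 on slide 2; in the fit with the slide as a block 2283 genes were called, and within slide 1, where LPS replicate 2 stands alone, 1660.

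**Figure D5:**
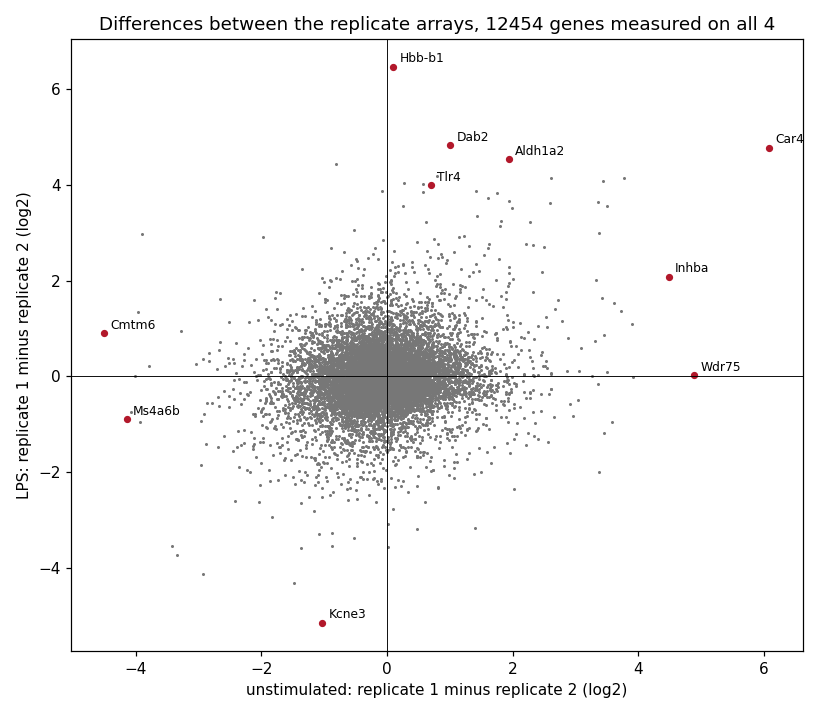
Difference between replicates 1 and 2 for the unstimulated arrays (x axis, log2) against that for the LPS arrays (y axis, log2), for 12454 genes well above background on all 4 WT arrays. Most genes lie near the centre; Hbb-b1, Dab2 and Tlr4 differ mainly between the LPS arrays, Wdr75 and Cmtm6 mainly between the unstimulated arrays, and Car4 between both.

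The knockout response was measured on 4 other arrays. Its difference from the WT response was called for 6 of 14471 genes (0.0415%), and 167 had an unadjusted p under 0.05 by limma. The smallest called difference was 3.63 on the log2 scale. With 2 arrays per group smaller differences can be missed, so few calls do not show that the responses were alike. Mrpl39, a mitochondrial ribosomal protein gene, showed no called change in WT (2.45 and 2.03, then 1.89 and 2.49). In KO it fell by 4.71 on the log2 scale after LPS (2.39 and 2.01, then -2.58 and -2.43). Both KO LPS arrays were on slide 2, and with the slide as a block this difference was not called. The part of the slide, or of miR-155 itself, in this fall was not tested. The other 5 calls were falls in WT only, of probes well above background on both WT unstimulated arrays and on no other array: Spag17, AK082037, NAP100574-001, AK089089 and AK034179. With normexp none of these 5 falls was called in WT. These 5 probes lie close together on the array, within rows 127 to 192 and columns 22 to 25 of 532 rows and 85 columns. The second Spag17 probe, elsewhere, was not well above background on any WT array. That block holds 255 spots, 9 of which were above background on both WT unstimulated arrays alone, against 46 probes over the whole array. It also holds the probes of 97 tested genes, 23 of them called lower and 6 higher, beside 11.5% lower and 10.2% higher of all tested genes. Among the 6 was Il1f6, an interleukin gene at least 10.7-fold higher. The part of array position in these calls was not tested. No other gene whose value is given here had its probe in that block. For the leading genes the KO response was 13.17 ± 0.24 for Il6, 10.32 ± 0.33 for Rsad2 and -7.19 ± 0.45 for Asgr2. The difference from WT was 0.45 ± 0.34 for Il6, 1.29 ± 0.46 for Rsad2 and 0.25 ± 0.64 for Asgr2, and none of these 3 was called.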

How the data were processed

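RNA of 8 samples, 2 for each genotype and state, was labelled with Cy3 and hybridised singly to Agilent mouse arrays. Agilent Feature Extraction 10.5.1.1 read the spots, per the file headers. The deposited processed signal is an intensity, linear and already background-subtracted; coordinates are those of mm9 in the same files. Other deposited columns hold quality flags (a score of 0 or 1 per spot). The series values that the authors deposited are log2 and differed from the log2 processed signal by a constant per array. An array held 45018 spots, 1639 of them controls. Of the spots that were not controls, 50.8% to 55.8% were well above background on the WT arrays, and none was saturated. The number of arrays limits the precision.

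Control spots and outlying spots were left out, spots of a probe were averaged, and log2 signals were taken relative to the array's own 75th percentile. A gene was represented by its probe with the highest mean over the 8 arrays; of 5379 genes with several probes, 7 had probes called in opposite directions. limma 3.58.1 (R 4.3.3, data.table version 1.17.8) was fitted to all 8 arrays with 4 groups (4 residual degrees of freedom), with Benjamini-Hochberg adjustment over all tested genes. The test was checked on simulated data in which the arrays were independent. That check does not cover deviations shared by same-numbered arrays. Promoters were searched and figures drawn with Python 3.11.15, pandas 2.3.3, numpy 2.4.6 and matplotlib 3.10.9. Of the tested genes, 12206 of 14472 matched the RefSeq list of genes by accession or symbol, and names are those of the array.

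Named genes are the 12 largest rises and falls measured on all 4 WT arrays, the 8 largest lower bounds each way, the 3 smallest p-values in each direction of each list with a set of well-known genes, the called differences between genotypes, the 5 smallest p-values outside the lists each way and the 5 largest differences between replicates. Named genes whose call did not hold without an array are mostly given as counts. Genes of chromosomal runs and those of the mitosis promoters were chosen after their values were seen. The members and lists were chosen with earlier results of these data known. Alternatives tried were normexp background correction (offset 50), quantile or median scaling, other filters, every probe, the WT arrays alone, the slide or replicate number as a block, slide 1 alone, the authors' log2 values and each WT array left out; bounds without each array, and differences with a dim array at its lowest detectable level, were added after seeing the data. Some results are not reported here.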

Additional observations from a re-analysis of the deposited data

Results flagged for a closer look

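In 6 genes the LPS response differed between genotypes by the limma test of that difference (adjusted p = 0.0414 for each). The KO response minus the WT response was 4.71 for NAP100574-001, 5.66 for Spag17, 5.75 for AK082037, 3.63 for AK034179, 4.17 for AK089089 and -4.66 for Mrpl39. The first 5 rest on probes well above background on the 2 WT unstimulated arrays alone, and these lie within rows 127 to 192 and columns 22 to 25 of the array. Mrpl39 was well above background on all 8 arrays, with its probe at row 63 and column 37. Both KO LPS arrays were on slide 2, and the part of the slide was not tested. The part of array position was not tested.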

How the results depend on the processing

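Of the 3150 WT calls (1483 higher, 1667 lower) normexp left 791 (460 and 331), of which 776 were among the 3150, and slide 1 alone left 1660 (865 and 795); no kept call turned direction in either. Requiring signal on all 4 WT arrays left 963 higher, and counting every probe gave 2312 higher. Leaving out 1 WT array gave 1480 to 2170 calls, 712 to 1145 higher and 759 to 1025 lower. The 6 differences between genotypes became 17 with quantile scaling, 0 with normexp, without the filter, with signal on all 4 WT arrays, with every probe and with the slide as a block, and 0 to 9 without 1 WT array; the cause was not tested. Slc4a1 turned to -0.01 with normexp. Without the filter the median of all genes moved to -0.35. With 2 numbers the pairing cannot be settled: deviations of same-numbered arrays correlated at 0.15 (WT) and 0.21 (KO) between the states, and at 0.52 (unstimulated) and 0.72 (LPS) between the genotypes. A replicate block gave 4182 calls, 3146 of them among the 3150, and called Il10 (3.86). Of the 159 named genes that kept their call without any 1 array, normexp kept 130, slide 1 alone 154, and quantile scaling, median scaling, no filter, the filter over 4 groups, the WT arrays alone, the slide or replicate block and the authors' table kept 159. Signals under background limit 440 of the rises and 256 of the falls to lower bounds at most. Some of these genes, Apcs among them, had no lower bound.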

Other observations

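Some gene groups without a place above showed small counts. Of 24 tested genes of the unfolded protein and integrated stress response 3 were called higher (12.5%) and 1 lower (4.17%), beside 10.2% and 11.5% of all tested genes. None of these calls stayed in all 4 leave-one-out fits. Of 15 BCL2 family genes 3 were called higher (20%, beside 10.2% of all tested genes) and 0 lower, and 0 of these calls stayed. Of 36 genes of antioxidant, iron and metal handling 10 were called higher and 1 lower, and 5 of the rises stayed called. The letters TATAAA were found in the promoter windows of 132 of 938 symbols called higher (14.1%), 122 of 1233 called lower (9.89%) and 930 of 9789 tested (9.5%).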
